A study of Mus musculus with 18 samples.

Results

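Described here are 10 cytokine receptor chains of B cells, *Il2rg*, *Il4ra*, *Il21r*, *Il9r*, *Il2ra*, *Csf2rb*, *Il5ra*, *Il10ra*, *Il6ra* and *Ifngr1*, among the 16545 genes of a deposited expression table. They were chosen by name, and each was found by its NCBI gene ID. The table holds FPKM (fragments scaled to the length of the transcript and to all mapped fragments of a library) of purified splenic B cells from C57BL/6 mice, in 18 libraries. The 6 groups are control and B-CKO cells on day 0, day 1 and day 2 of LPS, that is after 0 h, 24 h and 48 h, with 3 libraries in each and 1 mouse behind each library. B-CKO mice carried a B cell Cre and Zbtb24 loxp/loxp, in which Cre removes exon 2 of *Zbtb24*, and the control littermates carried the same Cre with Zbtb24+/+. Neither the labels nor the methods give the age or sex of the mice behind these libraries, or say whether 1 mouse gave the cells of all 3 days. ZBTB24 is a zinc finger protein whose loss causes an immunodeficiency syndrome. LPS, a bacterial cell wall component, activates B cells through TLR4. Libraries of cells cultured without LPS were not analysed here, so that LPS and the time in culture cannot be told apart.

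Cytokine receptors of this kind are built from chains that have no enzyme activity of their own. A ligand brings a private chain together with a shared chain, the JAK kinases bound to their tails phosphorylate each other and the receptor, and STAT proteins recruited there move to the nucleus. The common gamma chain encoded by *Il2rg* serves the receptors for IL-2, IL-4, IL-7, IL-9, IL-15 and IL-21, and the common beta chain encoded by *Csf2rb* serves those for IL-3, IL-5 and GM-CSF. In B cells, IL-4 and IL-21 act on class switching and on differentiation into plasma cells, IL-5 on B1 cells, and IL-10, IL-6 and interferon gamma on growth and antibody class.

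Several facts about the libraries stand beside the results. *Zbtb24* was lower in each B-CKO library than in each control library on all 3 days, with means of 12.5 against 45.4 FPKM at 0 h, 10.9 against 17.6 FPKM at 24 h and 10.4 against 15.2 FPKM at 48 h. All 7 B cell markers used were above 1 FPKM on average in every group, with summed levels of 3720 to 4920 FPKM at 0 h and 1950 to 2560 FPKM later. The 9 T cell markers summed to 9.5 to 17.4 FPKM at 0 h and to 1.46 to 3.31 FPKM later, with *Cd3e* and *Cd4* below 1 FPKM on average in every group. The 11 myeloid markers summed to 5.81 to 12.9 FPKM at 0 h, 10.4 to 13.2 FPKM at 24 h and 28.7 to 36.7 FPKM at 48 h, with *Csf1r*, *S100a8* and *S100a9* below 1 FPKM on average in every group. Most of the sum at 48 h was *Flt3*, with a control mean of 25.2 FPKM, a B-CKO mean of 31.6 FPKM and no overlap between the groups (log2 difference 0.33, limma adjusted p = 0.361), and *Flt3* was also higher without overlap at 24 h (0.41, limma adjusted p = 0.0586). The mean of *Itgam* went from 0.977 FPKM at 0 h to 4.95 FPKM at 48 h in control and from 0.783 to 3.67 FPKM in B-CKO cells, which were lower without overlap at 48 h (log2 difference -0.35, limma adjusted p = 0.64). The 5 erythroid markers summed to 6.82 to 46.5 FPKM at 0 h and to 0.07 to 4.02 FPKM later, and the 4 natural killer cell markers to 2.78 to 4.22 FPKM at 0 h and to at most 0.24 FPKM later. The 5 plasma cell markers summed to 242 to 420 FPKM at 0 h, 135 to 154 FPKM at 24 h and 194 to 316 FPKM at 48 h. One of them, *Sdc1*, was lower without overlap in B-CKO cells at 0 h (means of 3.69 against 5.69 FPKM, limma adjusted p = 1) and 48 h (1.81 against 2.84 FPKM, limma adjusted p = 0.428). The 10 immediate early genes, which cells switch on within minutes of a disturbance, summed to 3430 to 5090 FPKM at 0 h and to 189 to 331 FPKM later. Their part in the results below, and that of the other cells, was not tested. The number of fragments behind a value is unknown. Steps between low values gave a relative depth of 0.88 to 0.908 at 0 h and of 1.01 to 1.06 later, where 1 is the geometric mean of all libraries. The median SD between replicates on the log2(FPKM + 1) scale was 0.169 in control and 0.158 in B-CKO cells at 0 h, against 0.0563 and 0.0545 at 24 h and 0.0744 and 0.0852 at 48 h, so that day 0 gives the least precise values.

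Genomic positions are given on GRCm38, the assembly also named mm10, from NCBI RefSeq. *Il4ra* (gene ID 16190) spans chr7:125552271-125579474 and *Il21r* (gene ID 60504) spans chr7:125603252-125634397, both on the plus strand, with 23778 bases between them. *Il2rg* (gene ID 16186) lies on chromosome X from 101264385 to 101268255, *Il9r* (gene ID 16199) on chromosome 11 from 32187544 to 32205283, *Il2ra* (gene ID 16184) on chromosome 2 from 11642792 to 11693194 and *Csf2rb* (gene ID 12983) on chromosome 15 from 78325800 to 78351001. *Il5ra* (gene ID 16192) lies on chromosome 6 from 106710375 to 106749037, *Il10ra* (gene ID 16154) on chromosome 9 from 45253837 to 45269149, *Il6ra* (gene ID 16194) on chromosome 3 from 89869324 to 89913196 and *Ifngr1* (gene ID 15979) on chromosome 10 from 19591949 to 19610229. Reads over the whole transcript count towards an FPKM value. In GENCODE, exons of *Il4ra* and *Il6ra* are overlapped by the antisense genes *Gm44876* and *Gm42809*, and exons of *Il2rg* by *Gm20489* on the same strand. Whether the counting used strand is not given in the sources used here, so that reads of these partners cannot be told apart from those of the receptors. *Csf2rb* has a near-identical copy, *Csf2rb2*, at group means of 0.12 to 0.407 FPKM, and reads of the copies may have been shared out between them.

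Promoter sequences of 8 of the 10 genes were taken from RefSeq on GRCm38.p6, each from 250 bases before to 50 bases after the start site of that table. This site lies 177 bases inside the gene span given above for *Il21r* and 5004 bases inside that for *Il9r*, so that these windows do not show the outermost start of either gene. Those of *Il4ra* (chr7:125552021-125552320, plus strand) and *Il21r* (chr7:125603179-125603478, plus strand) are shown because each B-CKO library of these neighbours lay below each control library on all 3 days, that of *Il9r* (chr11:32200230-32200529, minus strand) because each B-CKO library lay above each control library at 0 h and 48 h, and that of *Il2ra* (chr2:11642542-11642841, plus strand) because it was the gene that rose after LPS. Capitals mark matches to the NF-kappaB motif.
Il4ra: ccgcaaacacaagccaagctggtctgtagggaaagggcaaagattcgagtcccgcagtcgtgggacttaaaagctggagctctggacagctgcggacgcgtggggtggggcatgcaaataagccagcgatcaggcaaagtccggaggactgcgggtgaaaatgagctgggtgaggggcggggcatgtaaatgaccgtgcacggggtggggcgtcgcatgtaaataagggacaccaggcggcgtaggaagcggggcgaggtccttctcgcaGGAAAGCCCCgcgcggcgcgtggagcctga
Il21r: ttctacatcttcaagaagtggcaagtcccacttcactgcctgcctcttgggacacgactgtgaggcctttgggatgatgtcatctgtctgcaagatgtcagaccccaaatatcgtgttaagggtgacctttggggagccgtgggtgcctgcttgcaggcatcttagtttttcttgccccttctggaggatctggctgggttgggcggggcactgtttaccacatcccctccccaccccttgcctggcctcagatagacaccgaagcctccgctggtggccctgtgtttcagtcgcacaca
Il9r: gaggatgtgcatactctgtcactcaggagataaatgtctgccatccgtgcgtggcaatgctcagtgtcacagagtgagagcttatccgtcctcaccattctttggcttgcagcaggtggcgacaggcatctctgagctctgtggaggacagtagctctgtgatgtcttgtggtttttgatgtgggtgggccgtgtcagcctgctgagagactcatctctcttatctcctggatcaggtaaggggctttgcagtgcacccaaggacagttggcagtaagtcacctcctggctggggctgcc
Il2ra: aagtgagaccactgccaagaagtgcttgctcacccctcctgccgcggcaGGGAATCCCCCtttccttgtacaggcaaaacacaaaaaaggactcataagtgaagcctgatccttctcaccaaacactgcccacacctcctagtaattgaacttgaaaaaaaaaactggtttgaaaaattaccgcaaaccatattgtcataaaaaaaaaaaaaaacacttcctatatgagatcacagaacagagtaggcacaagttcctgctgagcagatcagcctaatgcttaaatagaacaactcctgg
NF-kappaB is the transcription factor family that TLR4 activates. Its motif, searched on both strands, matched *Il2ra* at 2 overlapping places, from positions -201 and -200 relative to the start site, and *Il4ra* from position 20, and 4.51% of the 32851 promoters of the same length hold a match. The letters CAGGACCT, a core of the motif known for ZBTB24, were in none of the 8 windows and in 1.99% of all promoters. TTCNNNGAA, the letters STAT proteins bind, was in none of the 8 and in 8.3% of all. The GC content of the windows ranged from 42.7% in *Il2ra* to 66% in *Il6ra*, against a median of 52.7% over all promoters. A match is a string of letters and not a site shown to be bound.

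The levels of the 10 chains spanned a wide range that kept its top order through the culture. FPKM are scaled to transcript length, so levels of different genes can be set side by side, as shares of the fragments of a library rather than as amounts per cell. *Il2rg* was the highest of the 10 in all 6 groups and *Il21r* the second. In control cells, *Il2rg* was at 287 ± 15.3 FPKM (SD, n = 3) at 0 h, followed by *Il21r* at 162 ± 35.7, *Il4ra* at 105 ± 11.1, *Il10ra* at 73.3 ± 13.2, *Ifngr1* at 40.5 ± 4.49, *Il9r* at 28.7 ± 9.16, *Il5ra* at 12.3 ± 1.89, *Csf2rb* at 9.29 ± 0.542, *Il6ra* at 8.63 ± 0.652 and *Il2ra* at 3.64 ± 0.204 FPKM. In this order, all neighbours except *Csf2rb* and *Il6ra* had values that did not overlap. At 24 h and 48 h, *Il10ra* took the third place from *Il4ra*, and *Il2ra* moved from the tenth place to the sixth, in both genotypes. At those times the neighbours with overlapping values were *Il9r* and *Il6ra* in control cells on both days, *Il5ra* and *Il9r* in B-CKO cells at 24 h, and *Il5ra* and *Il6ra* in B-CKO cells at 48 h. In B-CKO cells at 0 h, the order was less sharp, with overlaps from *Il4ra* to *Il10ra*, from *Il10ra* to *Il9r*, from *Il9r* to *Ifngr1* and from *Il6ra* to *Csf2rb*. The levels of the 10 genes summed to 731 FPKM in control cells and to 670 FPKM in B-CKO cells at 0 h, 384 and 330 FPKM at 24 h, and 423 and 420 FPKM at 48 h.

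**Figure D1:**
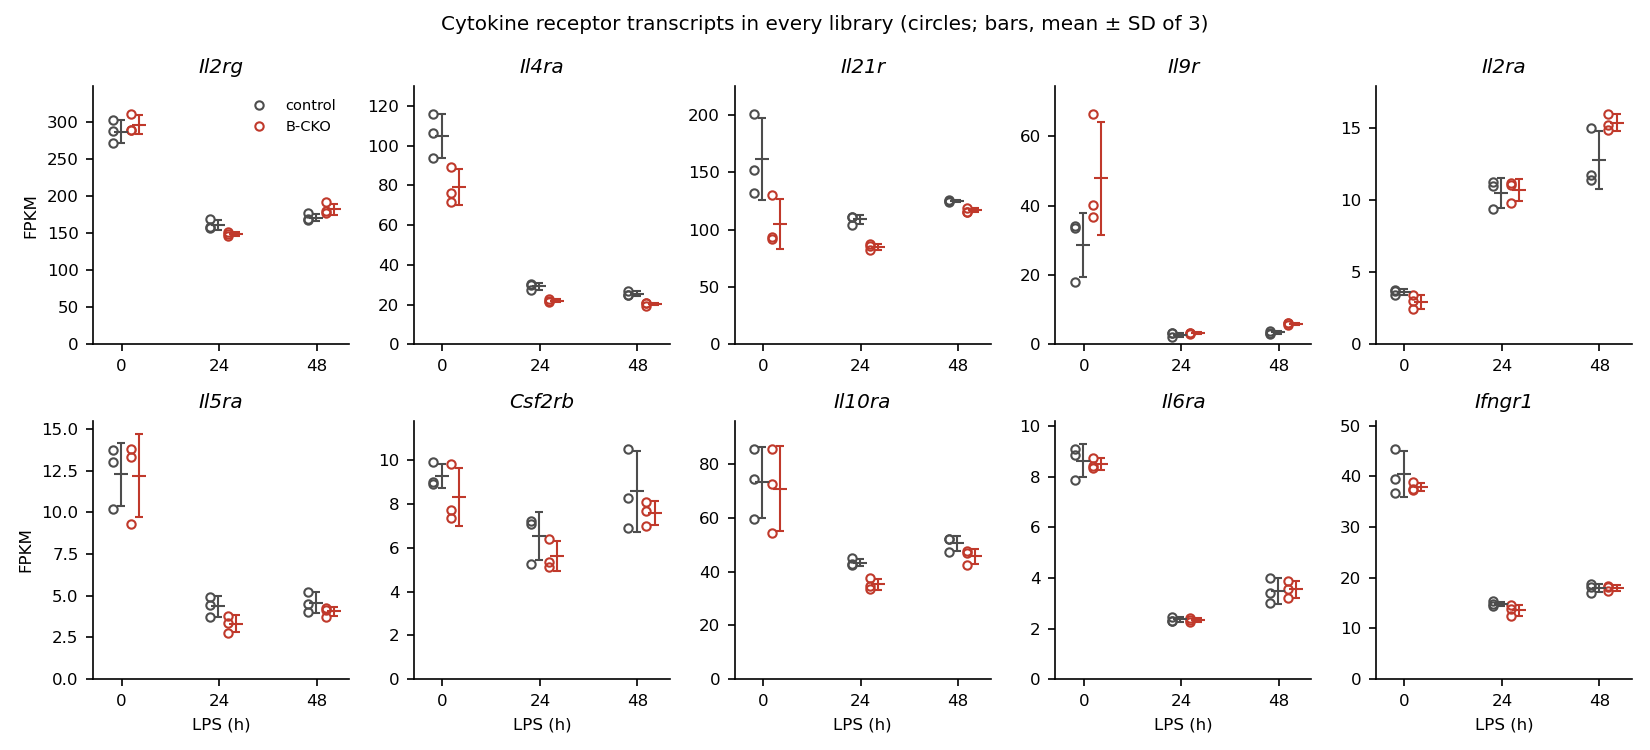
FPKM of the 10 receptor chains by hours of LPS, with a panel and an own axis from 0 for each gene, 1 circle per library and bars for the mean ± SD of 3 libraries, in control (grey) and B-CKO (red) cells. In both genotypes the means of 9 chains were lower at 24 h than at 0 h and that of *Il2ra* was higher, and *Il4ra* lay lower in B-CKO cells on all 3 days.

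The first comparison asks which receptor transcripts differed between control and B-CKO cells before stimulation. At 0 h, *Il4ra* and *Il21r* were lower in every B-CKO library than in every control library and *Il9r* was higher in every one, but 0 of the 10 genes had a limma adjusted p under 0.05. Of all 15641 genes tested, 0 (0%) had one either, and 313 (2%) had an unadjusted p under 0.05. The median log2 difference of the 10 genes was -0.07, against 0.00 over all genes tested, with the sign of B-CKO minus control throughout. Groups that did not overlap were found in 2 of the 10 in the lower direction, where 1.94% of all genes had this, and in 1 in the higher direction, where 1.92% had it. Among genes of at least 1 FPKM on average, as all 10 members were, these shares were 1.56% and 1.65%.

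*Il4ra* encodes the chain that binds IL-4 and, with *Il2rg*, signals through STAT6. It was at 93.86, 106.55 and 116.07 FPKM in control and at 71.59, 76.22 and 89.23 FPKM in B-CKO cells at 0 h. The highest B-CKO library thus lay just under the lowest control library, and the mean was 25.1% lower. The log2 difference was -0.41 (standard error 0.117, 95% interval -0.70 to -0.13, limma adjusted p = 1). The limma adjusted p of *Il4ra* over the alternatives that keep all libraries reached down to 0.0322, when the replicate number entered as a block and genes below a mean of 1 FPKM were left out. With the block alone it was 0.714, and without any 1 library or replicate number it was 0.985 or more.

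*Il21r* encodes the private chain for IL-21, the cytokine of follicular helper T cells. Its control values of 131.8, 152.35 and 201.31 FPKM at 0 h compared with 91.88, 93.73 and 130.56 FPKM in B-CKO cells. Both groups had their highest value in replicate 3, and the control and B-CKO ranges came within 2 FPKM of each other. By replicate number, the B-CKO to control ratios were 0.697, 0.615 and 0.649. The log2 difference was -0.61 (standard error 0.201, 95% interval -1.10 to -0.13, limma adjusted p = 1). At 0 h same-numbered libraries deviated together, and with both this block and the 1 FPKM minimum the limma adjusted p of *Il21r* was 0.00765, whereas with the block alone it was 0.689 and without any 1 library or replicate number 0.985 or more.

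*Il9r*, the private chain for IL-9, had the reverse pattern. It was at 34.24, 18.09 and 33.64 FPKM in control and at 40.2, 36.86 and 66.54 FPKM in B-CKO cells at 0 h. Control replicate 2 was the low library of its group and B-CKO replicate 3 the high one, and the B-CKO mean was 1.67 times the control mean. The log2 difference of 0.73 had a standard error of 0.317 and a 95% interval from -0.04 to 1.49, which includes 0 (limma adjusted p = 1). It was 0.44 without control replicate 2 and 0.47 without B-CKO replicate 3, and without any 1 library or replicate number the limma adjusted p of *Il9r* was 0.985 or more.

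The other 7 genes overlapped between the genotypes at 0 h, with log2 differences from -0.24 in *Il2ra* to 0.05 in *Il2rg*. The common gamma chain *Il2rg* was at 288.3, 302.06 and 271.54 FPKM in control and 311.11, 289.07 and 289.28 FPKM in B-CKO cells, with a 95% interval of the log2 difference from -0.14 to 0.23. The interval of *Il10ra* was wider, from -0.54 to 0.43, since its values of 59.57, 85.96 and 74.5 FPKM in control and 54.32, 85.71 and 72.83 FPKM in B-CKO cells spread by replicate number. The wide spread limits what can be seen at 0 h. Data were simulated for 15638 genes with a spread modelled on that of these libraries. The fit recovered 5.71% of genes with a 1.5-fold change and 56.9% of those with a 2-fold change. The simulation gave 101 calls, against 0 in the real data. More calls loosen the adjusted threshold, so recovery in the real data may be lower. This is the fit of the main setting, which has no replicate block. Same-numbered control and B-CKO libraries deviated together at 0 h (r = 0.85, 0.47 and 0.79 across genes), which that fit leaves unused.

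After 24 h of LPS, *Il21r* was the member that passed the test, lower in B-CKO cells, and it was so in the main setting but not in all others. *Il4ra*, *Il10ra* and *Il2rg* were also lower in each B-CKO library than in each control library, without passing it. The 1 call among 10 compares with 15 of all 15104 genes tested (0.0993%), of which 13 were lower (0.0861%) and 2 higher (0.0132%), while 2463 genes (16.3%) had an unadjusted p under 0.05. The 4 genes with lower, non-overlapping groups compare with 11.7% of all genes, and 0 members had higher, non-overlapping groups, against 8.43%. Among genes of at least 1 FPKM on average, as all 10 members were, these shares were 15.9% lower and 11.8% higher. The median log2 difference of the 10 genes was -0.15, and that of all genes tested -0.01. Of the 7 B cell markers, 4 (*Blk*, *Cd22*, *Cd79a* and *Ms4a1*) were lower without overlap in B-CKO cells at 24 h as well, and the summed level of the 7 was 1950 to 2020 FPKM in B-CKO and 2100 to 2260 FPKM in control libraries. Of the 10 immediate early genes, 3 (*Ier2*, *Junb* and *Zfp36*) were lower without overlap in B-CKO cells and 0 higher. Their summed level over all 10 was 189 to 206 FPKM in B-CKO and 215 to 226 FPKM in control libraries. The part of either list in the receptor differences was not tested.

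*Il21r* was at 110.86, 104.26 and 110.8 FPKM in control and at 85.46, 82.61 and 87.34 FPKM in B-CKO cells at 24 h. The replicates lay close together and the B-CKO mean was 21.6% lower. The log2 difference was -0.35 (standard error 0.0344, 95% interval -0.43 to -0.27, limma adjusted p = 0.0396). The size of this difference hardly moved with the settings, between -0.33 and -0.38 without any 1 library or replicate number, but its adjusted p did. It was 0.00285 with only genes of at least 1 FPKM, 0.0526 with median ratio scaling, 0.0722 with the replicate block, 0.929 in a single fit of all 18 libraries, and 0.0764 to 0.395 when any 1 library of either genotype or any 1 replicate number was left out, from limma in each case.

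*Il4ra* had the values 30.56, 27.3 and 29.7 FPKM in control and 21.45, 21.78 and 22.86 FPKM in B-CKO cells at 24 h. Its 24.5% lower mean was close to the difference at 0 h, and the gap between the groups was wider than either group's range. The log2 difference of -0.39 (standard error 0.0478, 95% interval -0.50 to -0.28) had a limma adjusted p of 0.0586, just above the threshold. With a pseudocount of 0.1 in place of 1 the limma adjusted p was 0.04, and with only genes of at least 1 FPKM it was 0.00569. The replicate block gave 0.126, the single fit of 18 libraries gave 0.201, and when 1 library or 1 replicate number was left out the value lay between 0.0808 and 0.395.

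*Il10ra* encodes the chain that binds IL-10, a cytokine that B cells also make. It was at 45.01, 42.39 and 42.83 FPKM in control and at 37.72, 34.86 and 33.75 FPKM in B-CKO cells. The groups did not overlap, with a log2 difference of -0.29 (standard error 0.046, 95% interval -0.40 to -0.18, limma adjusted p = 0.0748). Only genes of at least 1 FPKM gave a limma adjusted p of 0.0159 for *Il10ra*, among 388 of 9711 genes called in that setting. The limma adjusted p of *Il10ra* was 0.126 with the replicate block, 1 in the single fit of 18 libraries and 0.103 to 0.395 when 1 library or 1 replicate number was left out. *Il2rg*, at 169.01, 157.56 and 157.04 FPKM against 146.28, 151.66 and 148.41 FPKM, was 7.7% lower on average (log2 difference -0.11, standard error 0.0348, limma adjusted p = 0.183).

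The remaining 6 genes overlapped at 24 h. *Il5ra*, the private chain for IL-5, was at 4.95, 3.71 and 4.44 FPKM in control and 3.78, 3.38 and 2.77 FPKM in B-CKO cells, and a single control library reached into the B-CKO range (log2 difference -0.32, 95% interval -0.60 to -0.03, limma adjusted p = 0.258). *Csf2rb* was at 7.11, 5.28 and 7.24 FPKM against 5.13, 5.37 and 6.39 FPKM, with an interval from -0.48 to 0.12. *Il6ra*, *Il2ra* and *Ifngr1* had log2 differences of -0.02, 0.02 and -0.12, and *Il9r*, with values near 3 FPKM in both genotypes, one of 0.18 (95% interval -0.11 to 0.48). That of *Il9r* was 0.045 without control replicate 2, the lowest library, and 0.023 without replicate number 2. The simulated fit at this time recovered 98.5% of genes changed by 1.5-fold among 15102 genes. That simulation gave 207 calls, against 15 in the real data. More calls loosen the adjusted threshold, so recovery in the real data may be lower.

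At 48 h, *Il4ra* and *Il21r* were again lower and *Il9r* again higher in each B-CKO library than in each control library, while 0 of the 10 genes passed the test, against 7 of 15210 genes tested (0.046%), 6 of them lower (0.0394%) and 1 higher (0.00657%). An unadjusted p under 0.05 was found for 1172 genes (7.71%). Lower groups without overlap were found in 2 of the 10 members and in 6.24% of all genes, and higher ones in 1 member and in 4.89% of all genes. Among genes of at least 1 FPKM on average, as all 10 members were, these shares were 7.55% and 6.04%. The median log2 difference was -0.05 over the 10 genes and -0.01 over all genes.

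*Il9r* was at 3.3, 3.1 and 3.89 FPKM in control and at 5.57, 6.07 and 6.11 FPKM in B-CKO cells at 48 h. The lowest B-CKO library lay above the highest control library by more than the range of either group, and the ratio of the means was 1.72. The log2 difference was 0.65 (standard error 0.0914, 95% interval 0.43 to 0.86, limma adjusted p = 0.159). With only genes of at least 1 FPKM the limma adjusted p of *Il9r* was 0.015. It ranged from 0.00598 to 0.727 over the alternatives that keep all libraries, and from 0.262 to 0.937 when 1 library or 1 replicate number was left out.

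*Il4ra* was at 26.88, 24.87 and 24.69 FPKM in control and 20.6, 19.49 and 20.65 FPKM in B-CKO cells at 48 h, a 20.5% lower mean (log2 difference -0.32, standard error 0.0501, 95% interval -0.44 to -0.20, limma adjusted p = 0.167). The limma adjusted p of *Il4ra* ranged from 0.0228 to 0.37 over the alternatives that keep all libraries and from 0.277 to 0.937 when 1 library or 1 replicate number was left out. *Il21r*, at 126.34, 125.21 and 124.3 FPKM against 115.36, 115.75 and 118.65 FPKM, was 6.94% lower (log2 difference -0.10, standard error 0.0325, limma adjusted p = 0.476). Both groups of *Il21r* were tight, so that a small difference separated them. *Il2ra*, a chain of the IL-2 receptor also known as CD25, was at 11.43, 15.05 and 11.79 FPKM in control and 15.21, 16.02 and 14.91 FPKM in B-CKO cells. The groups overlapped through control replicate 2, the high library of its group, and the log2 difference was 0.26 (95% interval 0.02 to 0.50, limma adjusted p = 0.608). The log2 differences of the other 6 genes lay between -0.14 and 0.09.

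**Figure D2:**
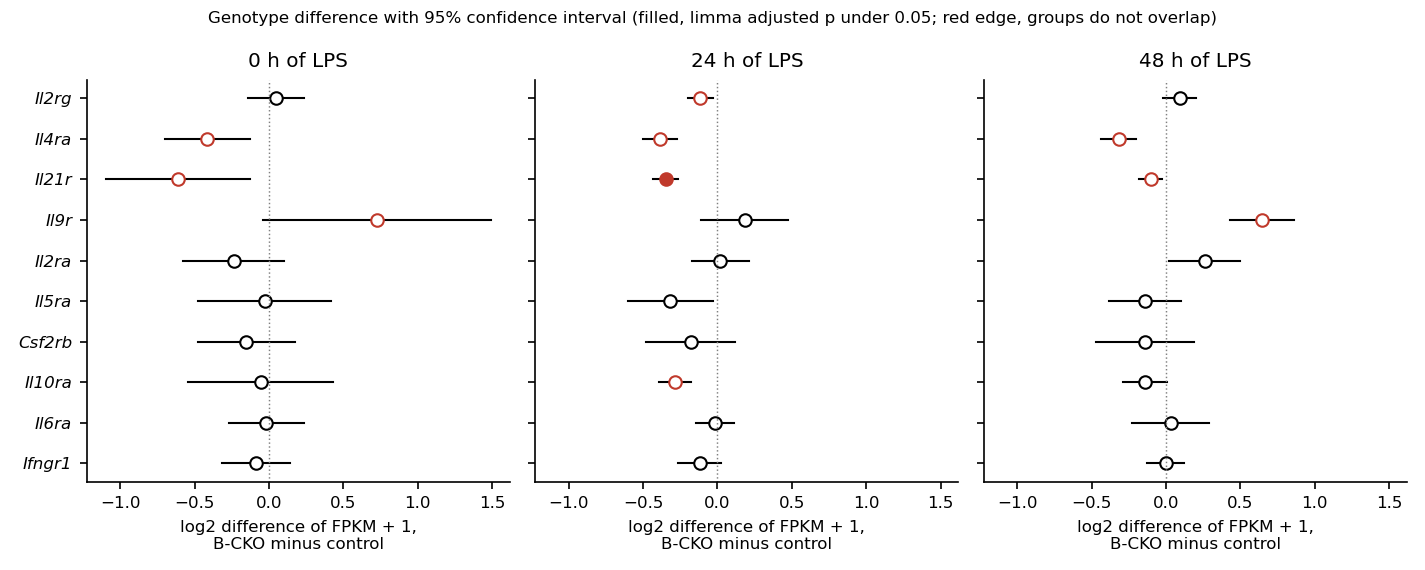
Log2 difference of FPKM + 1, B-CKO minus control, for the 10 receptor chains by hours of LPS (0, 24 and 48), with bars for 95% intervals, filled points for a limma adjusted p under 0.05 and red edges for groups that do not overlap. *Il4ra* and *Il21r* lie below 0 with their intervals on all 3 days, *Il9r* lies above 0 with its interval at 48 h, and *Il21r* at 24 h is the filled point.

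*Il4ra* and *Il21r* are neighbours, and the genes beside them were looked at after the values had been seen. Upstream of *Il4ra*, *Kdm8* had log2 differences of 0.02, -0.26 and -0.49 at 0 h, 24 h and 48 h (limma adjusted p = 1, 0.144 and 0.159), with B-CKO libraries below the control libraries at 24 h and 48 h. *Nsmce1*, between *Kdm8* and *Il4ra*, had differences of -0.29, 0.10 and 0.03, of which that at 24 h had B-CKO libraries above the control libraries. Downstream of *Il21r*, *Gtf3c1* and *D430042O09Rik* stayed between -0.11 and 0.05 on all 3 days, with overlapping groups.

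In a wider window, genes of at least 1 FPKM on average within 2 Mb of the pair were counted, with *Il4ra* and *Il21r* themselves left out. Lower B-CKO groups without overlap made up 4.69% of them (3 of 64 genes) at 0 h, 37.9% (22 of 58) after 24 h and 22% (13 of 59) after 48 h. Over all genes of at least 1 FPKM the shares were 1.56%, 15.9% and 7.55%. Higher groups without overlap were found in 0%, 8.62% and 1.69% of the genes near the pair, against 1.65%, 11.8% and 6.04% over all genes. The share of lower genes was thus higher around *Il4ra* and *Il21r* than over all genes on each day, and the median log2 differences there were 0.01, -0.05 and -0.06. The window was chosen after the values had been seen, and no test of it was made. In the main setting, genes within 2 Mb with a limma adjusted p under 0.05 were 0 of 64 at 0 h, 1 of 58 after 24 h and 1 of 59 after 48 h. Over all genes of at least 1 FPKM they were 0 of 9979, 15 of 9711 and 6 of 9857. A window of 1 Mb gave shares of lower genes of 6.25%, 53.3% and 33.3%, from 15 or 16 genes, and a window of 5 Mb gave 3.67%, 29.1% and 19%. From these libraries, the loss of *Zbtb24* and a difference of this stretch of chromosome 7 between the mice cannot be told apart for *Il4ra* and *Il21r*.

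**Figure D3:**
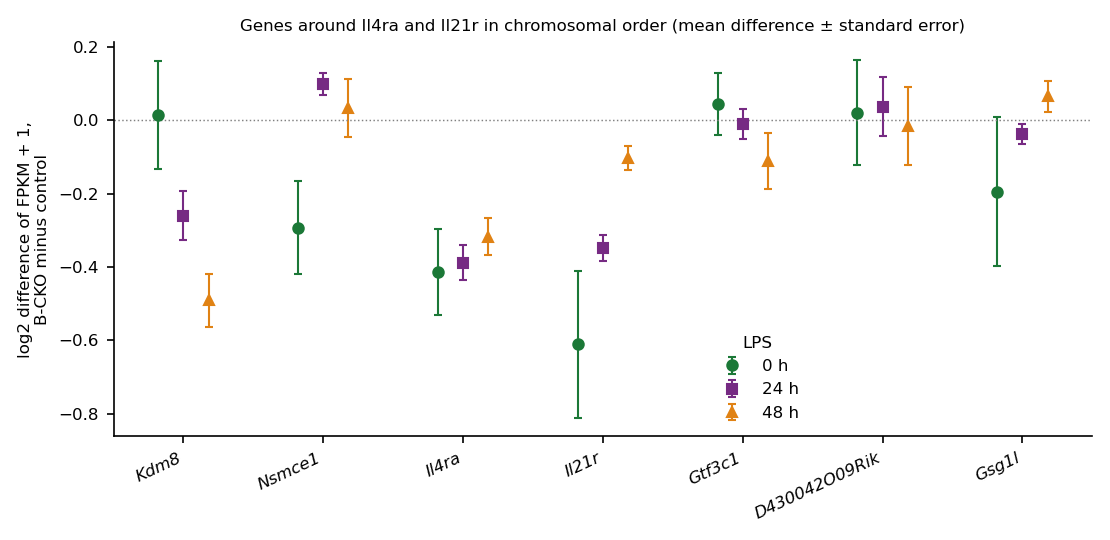
Log2 difference of FPKM + 1 between B-CKO and control cells for *Il4ra*, *Il21r* and the genes around them in their order on chromosome 7, with points for the means at 0 h, 24 h and 48 h and bars for standard errors. *Il4ra* and *Il21r* lie below 0 on all 3 days, whereas *Gtf3c1* and *D430042O09Rik*, the next genes after *Il21r*, lie near 0.

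The second comparison asks how each chain changed over the hours of LPS, within each genotype. In control cells, 9 of the 10 chains fell from 0 h to 24 h and *Il2ra* rose, all 10 with a limma adjusted p under 0.05. In B-CKO cells 8 fell and *Il2ra* rose, and *Il21r* did not pass the test. A large part of all genes changed at this step, 8915 of 15531 (57.4%) in control cells, 30.7% lower and 26.7% higher, and 9306 of 15551 (59.8%) in B-CKO cells, 32.3% lower and 27.5% higher. The median log2 change of the 10 genes was -1.07 in control and -1.20 in B-CKO cells, against -0.02 over all genes in both. RNA of bulk cells does not tell fewer cells of a type from less RNA per cell. FPKM are shares of the fragments of a library, so falls and rises here are changes of share. Whether the amount of a transcript per cell changed was not measured.

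*Il9r* had the largest log2 change of the 10, from 34.24, 18.09 and 33.64 FPKM to 3.15, 2.09 and 3.11 FPKM in control cells and from 40.2, 36.86 and 66.54 FPKM to 3.03, 3.39 and 3.37 FPKM in B-CKO cells. The means were 10.3-fold and 14.7-fold lower at 24 h. The log2 changes were -2.93 (standard error 0.268, limma adjusted p = 0.000182) and -3.47 (standard error 0.218, limma adjusted p = 2.76e-05). At 24 h both genotypes were near 3 FPKM and overlapped.

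*Il4ra* fell 3.61-fold in control and 3.59-fold in B-CKO cells (log2 changes -1.82 and -1.79, limma adjusted p = 1.77e-05 and 1.1e-05). *Il6ra*, the chain that binds IL-6, went from 9.12, 7.89 and 8.88 FPKM to 2.46, 2.31 and 2.31 FPKM in control cells and from 8.76, 8.34 and 8.42 FPKM to 2.33, 2.4 and 2.24 FPKM in B-CKO cells, 3.66-fold lower in both. *Ifngr1*, the ligand-binding chain of the interferon gamma receptor, went from 36.74, 39.39 and 45.49 FPKM to 15.32, 14.81 and 14.37 FPKM in control cells, 2.73-fold lower, and from 37.5, 37.31 and 38.9 FPKM to 14.54, 13.88 and 12.4 FPKM in B-CKO cells, 2.79-fold lower. For these 3 genes the fold was close in the 2 genotypes, and no library of 24 h reached any library of 0 h.

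*Il5ra* went from 13.04, 10.19 and 13.77 FPKM to 4.95, 3.71 and 4.44 FPKM in control cells (2.82-fold, log2 change -1.31, limma adjusted p = 0.000431) and from 13.83, 9.28 and 13.35 FPKM to 3.78, 3.38 and 2.77 FPKM in B-CKO cells (3.67-fold, log2 change -1.60, limma adjusted p = 0.000293). Its partner, the common beta chain *Csf2rb*, fell with a smaller log2 change, from 9.91, 9.02 and 8.93 FPKM to 7.11, 5.28 and 7.24 FPKM in control cells (log2 change -0.46, limma adjusted p = 0.0235) and from 7.37, 9.83 and 7.73 FPKM to 5.13, 5.37 and 6.39 FPKM in B-CKO cells (log2 change -0.49, limma adjusted p = 0.0194). The call of *Csf2rb* in control cells was lost without control replicate 1 or 2 of 0 h, without control replicate 2 of 24 h, or without any 1 replicate number (limma adjusted p = 0.0515 to 0.0878). In B-CKO cells the call of *Csf2rb* was lost without B-CKO replicate 1 or 2 of 24 h and without replicate number 1 or 2 (limma adjusted p = 0.0615 to 0.122).

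*Il2rg* and *Il10ra* fell with smaller log2 changes than the private chains of IL-4, IL-5, IL-6 and IL-9. *Il2rg* was 1.78-fold lower at 24 h in control (log2 change -0.83, limma adjusted p = 7.62e-05) and 1.99-fold lower in B-CKO cells (log2 change -0.99, limma adjusted p = 1.36e-05). *Il10ra* was 1.69-fold and 2.00-fold lower (log2 changes -0.73 and -0.96, limma adjusted p = 0.00354 and 0.00228), and without replicate number 3 the limma adjusted p of *Il10ra* was 0.0521 in control and 0.0501 in B-CKO cells. *Il21r* was 1.49-fold lower in control (log2 change -0.55, standard error 0.151, limma adjusted p = 0.0205) and 1.24-fold lower in B-CKO cells (log2 change -0.29, standard error 0.137, limma adjusted p = 0.12). The control call of *Il21r* was lost without control replicate 2 of 0 h, without any 1 control library of 24 h, or without replicate number 2 (limma adjusted p = 0.0523 to 0.147), and rescaling to TPM gave a call in B-CKO cells (log2 change -0.45, limma adjusted p = 0.0222). Without B-CKO replicate 3 of 0 h, the highest library of its group, the B-CKO change of *Il21r* was -0.12 (limma adjusted p = 0.0563).

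*Il2ra* was at 3.71, 3.8 and 3.41 FPKM at 0 h and 11.01, 11.27 and 9.37 FPKM at 24 h in control cells, and at 3.41, 3.03 and 2.42 FPKM and 11.06, 11.19 and 9.8 FPKM in B-CKO cells. It was the member that rose, 2.90-fold in control (log2 change 1.31, standard error 0.103, limma adjusted p = 9.54e-05) and 3.62-fold in B-CKO cells (log2 change 1.57, standard error 0.122, limma adjusted p = 6.91e-05). By 48 h its mean was 3.50 times that of 0 h in control and 5.21 times in B-CKO cells.

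From 24 h to 48 h the changes were smaller and mostly upward. In control cells *Il21r*, *Il10ra*, *Il6ra* and *Ifngr1* rose and *Il4ra* fell further, 5 of 10, against 6820 of 15178 genes (44.9%), 20.1% higher and 24.8% lower. In B-CKO cells 8 of 10 rose, that is *Il9r*, *Il2ra*, *Il6ra*, *Il21r*, *Ifngr1*, *Csf2rb*, *Il10ra* and *Il2rg*, and none fell, against 6964 of 15253 genes (45.7%), 21.7% higher and 24% lower. The median log2 change of the 10 genes was 0.23 in control and 0.38 in B-CKO cells, and that of all genes was -0.01 and 0.00.

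The rise of *Il9r* in B-CKO cells, 1.81-fold between the means, had a log2 change of 0.70 (standard error 0.0725, limma adjusted p = 0.000309), beside 0.24 (limma adjusted p = 0.208) in control cells. Without 1 library or replicate number, the control change of *Il9r* ranged from 0.097 to 0.329. With the replicate block and the 1 FPKM minimum together it was called (limma adjusted p = 0.0268). *Il21r* rose 1.15-fold in control (log2 change 0.20, standard error 0.0332, limma adjusted p = 0.00262) and 1.37-fold in B-CKO cells (log2 change 0.45, standard error 0.0331, limma adjusted p = 7.39e-05). The control call of *Il21r* was lost in the single fit of 18 libraries (limma adjusted p = 0.305). *Il2ra* rose in B-CKO cells (log2 change 0.49, limma adjusted p = 0.000788), beside 0.25 (limma adjusted p = 0.128) in control cells. The control change of *Il2ra* ranged from 0.13 to 0.345 without 1 library or replicate number. It was called with the 1 FPKM minimum (limma adjusted p = 0.0446) and with this minimum and the block (0.00636).

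*Il6ra* reached 2.99, 3.41 and 4.01 FPKM in control and 3.22, 3.89 and 3.56 FPKM in B-CKO cells at 48 h (log2 changes 0.41 and 0.45, limma adjusted p = 0.0114 and 0.00321), still less than at 0 h in each library. *Ifngr1* reached 17.07, 18.24 and 18.69 FPKM and 17.3, 18.18 and 18.43 FPKM (log2 changes 0.26 and 0.38, limma adjusted p = 0.00406 and 0.00282). *Il10ra* reached 47.24, 52.29 and 52.15 FPKM and 42.37, 47.12 and 47.59 FPKM (log2 changes 0.21 and 0.36, limma adjusted p = 0.0106 and 0.00288). In control cells the calls of *Il10ra*, *Il6ra* and *Ifngr1* were lost without replicate number 2 (limma adjusted p = 0.113, 0.0971 and 0.056) and without replicate number 3 (0.122, 0.0725 and 0.0549). In B-CKO cells that of *Il10ra* was lost without number 2 (limma adjusted p = 0.0545). In the single fit of 18 libraries the call of *Il10ra* was lost in control and B-CKO cells (limma adjusted p = 0.308 and 0.0663).

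*Il4ra* fell in control cells (log2 change -0.19, limma adjusted p = 0.0277) and had a log2 change of -0.12 in B-CKO cells (limma adjusted p = 0.066), where rescaling to TPM gave a call (-0.17, limma adjusted p = 0.0178). The control call of *Il4ra* was lost without control replicate 1 or 3 of 24 h, without control replicate 2 or 3 of 48 h and without any 1 replicate number (limma adjusted p = 0.051 to 0.216). The single fit of 18 libraries also lost it (limma adjusted p = 0.109). *Il2rg* reached 167.65, 168.51 and 177.2 FPKM in control (log2 change 0.09, limma adjusted p = 0.14) and 179.4, 176.71 and 191.39 FPKM in B-CKO cells (log2 change 0.29, limma adjusted p = 0.0011). *Csf2rb* reached 8.29, 6.9 and 10.54 FPKM in control (log2 change 0.34, limma adjusted p = 0.144) and 7.01, 8.09 and 7.69 FPKM in B-CKO cells (log2 change 0.38, limma adjusted p = 0.0139). The latter call was lost without B-CKO replicate 1 or 2 of 24 h or replicate number 1 or 2 (limma adjusted p = 0.0523 to 0.124). The single fit of 18 libraries also lost this B-CKO call (limma adjusted p = 0.0585). In control cells *Csf2rb* was called with the 1 FPKM minimum (limma adjusted p = 0.0458), the replicate block (0.0268) and both (0.000782). Its control change ranged from 0.194 to 0.468 without 1 library or replicate number. *Il5ra*, at 4.48, 4.04 and 5.25 FPKM and 3.75, 4.14 and 4.29 FPKM, passed in neither genotype in the main setting (log2 changes 0.06 and 0.24). In B-CKO cells it was called with the 1 FPKM minimum (limma adjusted p = 0.0477) and with this minimum and the block (0.0433). Without 1 library or replicate number the B-CKO change of *Il5ra* ranged from 0.111 to 0.36.

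**Figure D4:**
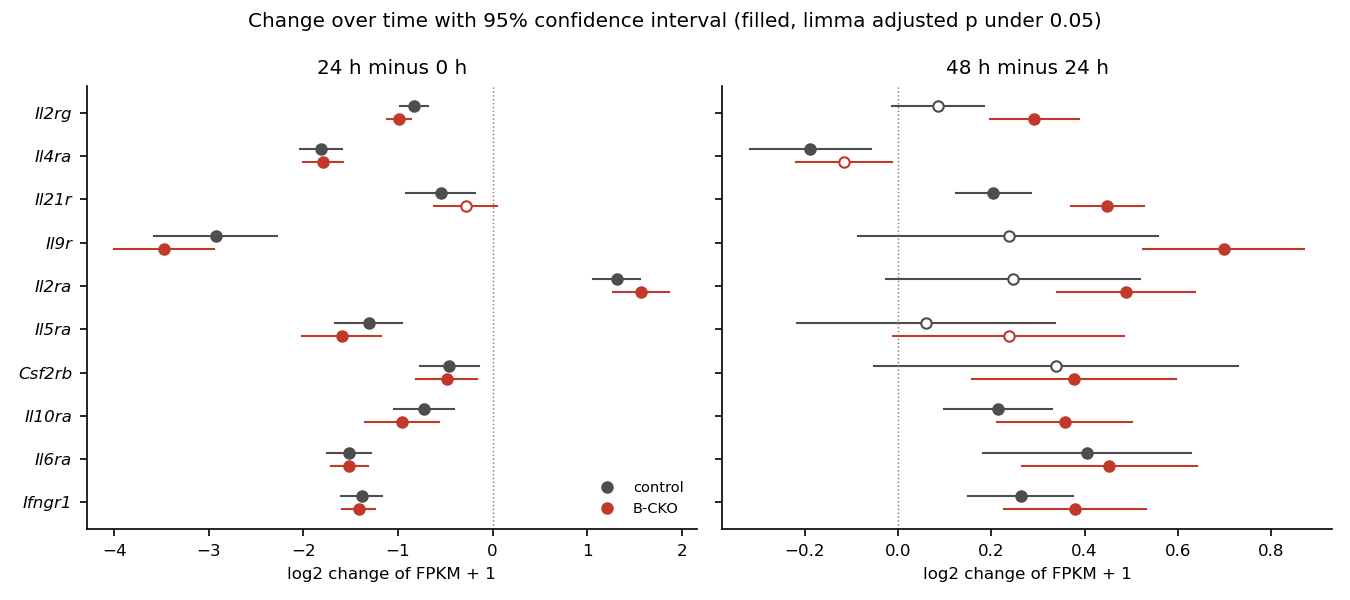
Log2 change of FPKM + 1 from 0 h to 24 h (left) and from 24 h to 48 h of LPS (right, on its own scale) for the 10 receptor chains in control and B-CKO cells, with bars for 95% intervals and filled points for a limma adjusted p under 0.05. In the left panel *Il2ra* lies above 0 and the other 9 below it, down to -3.47 for *Il9r* in B-CKO cells.

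Whether the change over time differed between the genotypes was tested with interaction contrasts. From 0 h to 24 h, 0 of the 10 genes passed with limma, and the count over all genes was 0 of 16182 (0%), with 467 (2.89%) at an unadjusted p under 0.05. The estimate for *Il9r* was -0.54 on the log2 scale (standard error 0.376), and -0.70 to -0.25 when 1 library or 1 replicate number was left out, with the smallest size without control replicate 2 of 0 h. From 24 h to 48 h, 0 of 10 and 0 of 15844 genes (0%) passed with limma, and 1158 genes (7.31%) had an unadjusted p under 0.05. The estimated change of *Il21r* was greater in B-CKO cells by 0.25 (standard error 0.0439, 95% interval 0.15 to 0.34, limma adjusted p = 0.399), that of *Il9r* by 0.46 (limma adjusted p = 0.61) and that of *Il2rg* by 0.21 (limma adjusted p = 0.549). A call of a rise in B-CKO cells alone is therefore not a difference between the genotypes that passed its own test.

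Of 8 chains that pair with these receptors, 5 fell from 0 h to 24 h in control cells and none rose, beside 30.7% lower and 26.7% higher over all genes tested. The 5 were *Csf2ra* (16.7 to 7.18 FPKM on average, log2 change -1.11), the ligand-binding chain for GM-CSF, *Il10rb* (44.9 to 24.5 FPKM, -0.83), *Il3ra* (7.65 to 4.12 FPKM, -0.74), *Il2rb* (2.18 to 0.98 FPKM, -0.66) and *Il6st* (13.7 to 2.59 FPKM, -1.72, with single libraries from 4.24 to 26.54 FPKM at 0 h), the shared chain of the IL-6 family known as gp130. *Ifngr2*, the partner of *Ifngr1*, was at 39.7 FPKM at 0 h and 40.1 FPKM at 24 h (log2 change 0.05). *Ifngr1* and *Ifngr2* were thus at like levels in control cells at 0 h, and *Ifngr2* was the higher of the pair at 24 h. In B-CKO cells 7 of the 8 fell, beside 32.3% of all genes. Among them *Csf2rb2* (0.407 to 0.12 FPKM) and *Il13ra1* (0.12 to 0.0333 FPKM) were low at both times.

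Of 20 other cytokine receptors tested, 15 fell and 1, *Il12rb1* (1.19 to 2.16 FPKM), rose in control cells from 0 h to 24 h. The shares of all genes for this and the next lists are again 30.7% lower and 26.7% higher in control and 32.3% and 27.5% in B-CKO cells. Examples of those that fell are *Il27ra* (32.8 to 10.5 FPKM, log2 change -1.55), *Tgfbr2* (92.9 to 39.3 FPKM, -1.22) and *Ifnar1* (32.2 to 13.3 FPKM, -1.20). Others that fell were low from the start. The control means of *Il7r*, *Ifnlr1*, *Lepr*, *Csf3r*, *Il12rb2*, *Prlr* and *Il22ra1* were below 1 FPKM at 0 h. In B-CKO cells 15 of 20 fell and 0 rose. Of those that fell, *Csf3r*, *Epor*, *Ifnlr1*, *Il12rb2*, *Lepr* and *Prlr* had B-CKO means below 1 FPKM at 0 h. Among the kinases and STAT proteins downstream, 7 of 10 fell in control cells, *Jak1* (133 to 90.8 FPKM), *Jak2*, *Tyk2*, *Stat2*, *Stat4*, *Stat5b* and *Stat6* (86.6 to 53.1 FPKM), and *Stat3* (49.9 to 63.1 FPKM) rose, and the same counts of 7 and 1 were found in B-CKO cells. *Jak3*, the kinase that binds the common gamma chain, was at 43.3 FPKM at 0 h, 45.6 FPKM at 24 h and 71.2 FPKM at 48 h, and rose from 24 h to 48 h in both genotypes. Of 16 feedback inhibitors, 7 fell and 3 rose in control cells, and *Socs3* was among those that fell (29.1 to 11.1 FPKM, log2 change -1.34). The medians of the 4 lists in control cells were -0.70 for partner chains, -0.34 for other receptors, -0.54 for kinases and STAT proteins and -0.13 for inhibitors, against -0.02 for all genes.

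Ligands were low with few exceptions. *Il10* rose from 1.95 to 13.8 FPKM (log2 change 2.34) and *Il6* from 0.02 to 5.51 FPKM (2.67) in control cells from 0 h to 24 h, and both rose in B-CKO cells. Of the low ligands, *Il5* also passed the test upward and *Il2* and *Ifng* downward in control cells, and *Csf2* upward in B-CKO cells. All 6 low ligands in the table, *Il2*, *Il5*, *Il13*, *Il21*, *Ifng* and *Csf2*, were below 0.4 FPKM on average in every group.

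In the main setting, none of the genes of these 5 lists passed the test between the genotypes on any day or in an interaction with limma. At 24 h, groups that did not overlap were found in the lower direction for 2 of 8 partner chains, 4 of 21 other receptors, 4 of 10 kinases and STAT proteins, 3 of 16 inhibitors and 0 of 8 ligands, and in the higher direction for 0 in each list, beside 11.7% lower and 8.43% higher over all genes. At 0 h the only gene of these lists without overlap was *Jak1*, which was higher in B-CKO cells (1.94% lower and 1.92% higher over all genes). At 48 h *Il2rb*, *Il27ra*, *Tyk2*, *Pias3*, *Ptpn6*, *Csf2* and *Il6* were lower without overlap and *Il12rb1*, *Stat4* and *Ptpn2* higher (6.24% and 4.89% over all genes). *Il2rb*, the chain that *Il2ra* and *Il2rg* need for a full IL-2 receptor, had means of 0.98 FPKM (control) and 0.553 FPKM (B-CKO) at 24 h (log2 difference -0.34, limma adjusted p = 0.166) and of 2.63 and 1.49 FPKM at 48 h (log2 difference -0.54, limma adjusted p = 0.284). *Stat6*, the STAT protein of IL-4, was at 53.1 and 46.4 FPKM at 24 h (log2 difference -0.19, limma adjusted p = 0.0848) and *Jak3* at 45.6 and 37.9 FPKM (-0.26, limma adjusted p = 0.15).

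**Figure D5:**
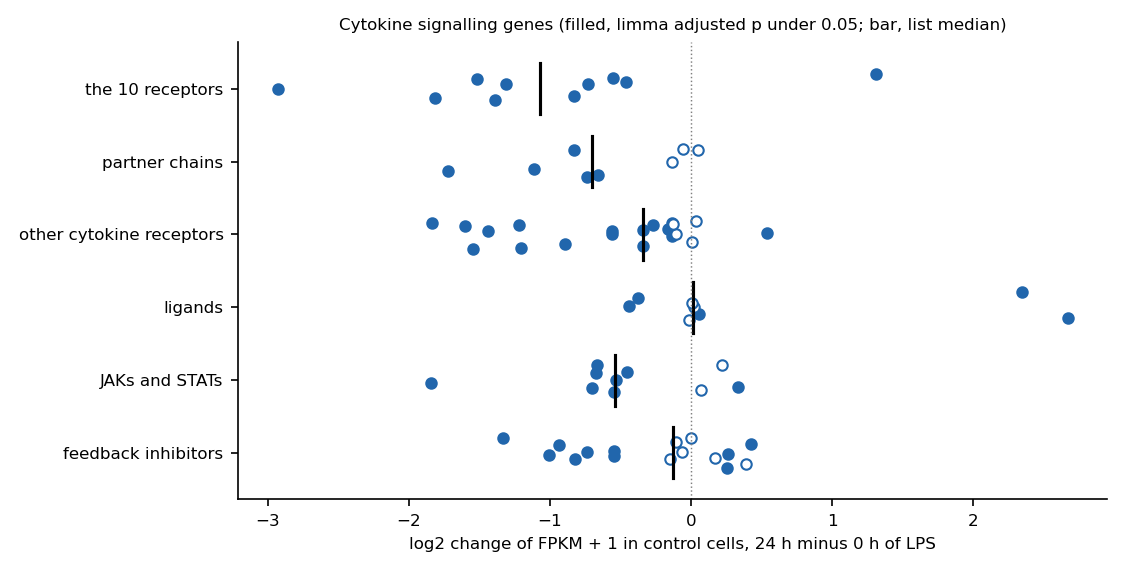
Log2 change of FPKM + 1 from 0 h to 24 h of LPS in control cells, with 1 point per gene of each list, filled for a limma adjusted p under 0.05, and a bar at the list's median. The medians of all lists except the ligands lie below 0, that of the 10 receptors at -1.07.

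Likeness of pattern was measured as Pearson's r of log2(FPKM + 1) over all 18 libraries, which share their time points and so vary mainly between 0 h and later. Among 9997 genes of at least 1 FPKM on average, *Il4ra* was most like *Ttc7* (r = 0.991), *Nfatc1* (0.99) and *Itpkb* (0.989), and *Il2rg* was most like *Cd79a* (0.995), the signalling chain of the B cell receptor. *Il9r* was most like *Acsf2* (0.983), *Il2ra* most like *Spdl1* (0.989) and *Il21r* most like *Atrnl1* (0.871), the lowest of the 10 best values. Among the 10, *Il6ra* and *Ifngr1* were the most alike (0.99), and *Il2ra* was negatively correlated with the other 9, from -0.96 with *Il4ra* to -0.29 with *Il21r*. Short lists of B cell subset genes were looked at after the values had been seen, and none of their genes passed the test for the genotype on any day (lowest limma adjusted p = 0.0703, *Spn* at 24 h). Of 6 marginal zone genes, none at 0 h, 3 at 24 h (*Cd1d1*, *Dtx1* and *S1pr3*) and 2 at 48 h (*Dtx1* and *S1pr3*) were lower without overlap in B-CKO cells, and *Cr2* was higher without overlap at 48 h. Of 5 B-1 cell genes, *Cd5* was lower without overlap at 0 h and 48 h and *Spn*, or CD43, at 24 h and 48 h, while *Zbtb32*, *Bhlhe41* and *Ctla4* overlapped on all 3 days. Of all genes tested, 1.94% on day 0, 11.7% after 24 h and 6.24% after 48 h of LPS were lower without overlap, and 4.89% were higher after 48 h. *Fcer2a*, or CD23, a gene of follicular B cells, overlapped on all 3 days. The part of B cell subsets in the receptor differences was not tested.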

How the data were processed

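RNA of 18 libraries of splenic B cells (3 per group) was analysed. The authors extracted RNA with an Omega kit, mapped paired reads to mm10 with bowtie2, used Cufflinks and RSEM, and deposited FPKM with 2 decimals for 16545 genes. Annotation and strand are not given in the sources used here. The labels name an MGI2000 instrument and the methods HiSeq or Novaseq. The submitters' processing notes name BWA, Bowtie2, RSEM, DESeq2 and mm10. Of the gene IDs, 16512 matched RefSeq symbols and 33 did not. Because FPKM are not counts, DESeq2, which the study used, was not run, and depth in fragments is unknown. In 154 of 267 genes with low values (57.7%), values were whole multiples of a step within 0.15, which gave relative depth only.

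Log2(FPKM + 1) was tested with limma 3.58.1 in R 4.3.3 (lmFit, eBayes with trend) on genes above 0 FPKM in any compared library, with only the groups compared in each fit (12 libraries for interactions), and p-values were adjusted over all genes tested (Benjamini-Hochberg, threshold 0.05). Folds on this scale understate changes of low genes. Replicates were separate mice, and libraries of different days were treated as independent. Two-sided exact permutation of 3 against 3 cannot go below p = 0.1 and was not used. Intervals are 95%. Fits were tested on simulated data, in which some genes of at least 1 FPKM were changed by 1.5-fold, 2-fold or 3-fold. Between genotypes, 2 of 101 calls were false at 0 h and 8 of 207 at 24 h. From 0 h to 24 h in control cells 13 of 145 calls were false, and 12 of 148 for the interaction over these times.

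The members, gene lists and tests were chosen with earlier results of these data known. All 10 members are named with their values on each day. For likeness, up to 3 genes with the highest r per member were taken. From the other lists, genes are named as examples of calls or non-overlapping groups. Neighbours of *Il4ra*, the windows around it and subset genes were chosen after seeing the data. Some listed genes and the results that need them are not reported here, and the lists are counted without them.

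Same-numbered control and B-CKO libraries deviated together at 0 h (r = 0.85, 0.47 and 0.79 across genes) and B-CKO libraries of 24 h and 48 h did so weakly (r = 0.13, 0.18 and 0.12). What a number marks is not given in the labels. Alternatives were a pseudocount of 0.1, genes of at least 1 FPKM on average, rescaling to TPM, median ratio scaling, the replicate block, a single fit of 18 libraries, and leaving out each library or replicate number. The block with the 1 FPKM filter was added after seeing the data. Python 3.11.15 (pandas 2.3.3, numpy 2.4.6, matplotlib 3.10.9) drew the figures.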

Additional observations from a re-analysis of the deposited data

How the results depend on the processing

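The count of receptor chains past the threshold depended on the setting mainly between genotypes (limma in each case). At 0 h it was 0, and 2 (*Il21r* and *Il4ra*) with the replicate block together with the 1 FPKM minimum, where 22 of 9979 genes were called against 0 in the main setting and 25 in a single fit of 18 libraries. At 24 h it was 1, and 2 with a pseudocount of 0.1, 3 with the 1 FPKM filter, 3 with the filter and the block, 0 with median ratio scaling, 0 with the replicate block, 0 in the single fit, and 0 without any 1 library or replicate number. All genes called at 24 h numbered 15, against 46, 388, 704, 11, 5, 8 and 0 to 8 in that order. At 48 h it was 0, and 1 with the 1 FPKM filter and 2 with filter and block (7 genes of all in the main setting, against 29 and 116, and 3 with the block alone). From 24 h to 48 h in control cells it was 5, and 2 in the single fit, 8 with filter and block, and 1 to 5 without 1 library or replicate number. The other counts stayed within 1.5 times, and the replicate block changed no other call except *Csf2rb* from 24 h to 48 h in control cells (limma adjusted p = 0.0268). Counts of the other gene lists depended on the setting too. Over all comparisons, 21 moved and 294 did not under the alternatives that keep all libraries. When 1 library or replicate number was left out, 33 moved and 432 did not.

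Differences near 0 changed sign, none of them called. *Ifngr1* at 48 h was 0.007 with median ratio scaling, and the *Il6ra* interaction from 0 h to 24 h was -0.004 with a pseudocount of 0.1. Without 1 library or replicate number, log2 differences between genotypes ranged from -0.312 to 0.003 for *Csf2rb* at 48 h, -0.038 to 0.024 for *Ifngr1* at 48 h, -0.202 to 0.122 for *Il10ra* at 0 h, -0.057 to 0.074 for *Il2ra* at 24 h, -0.15 to 0.14 for *Il5ra* at 0 h, and for *Il6ra* from -0.073 to 0.02 at 0 h, -0.043 to 0.006 at 24 h and -0.047 to 0.117 at 48 h. With no change of sign, those at 24 h ranged from -0.422 to -0.21 for *Il5ra*, -0.307 to -0.068 for *Csf2rb*, -0.144 to -0.068 for *Il2rg* and -0.165 to -0.058 for *Ifngr1*. Those at 0 h ranged from -0.321 to -0.137 for *Il2ra*, 0.006 to 0.1 for *Il2rg*, -0.284 to -0.037 for *Csf2rb* and -0.156 to -0.005 for *Ifngr1*. Those at 48 h ranged from -0.223 to -0.056 for *Il5ra*, -0.191 to -0.091 for *Il10ra* and 0.057 to 0.117 for *Il2rg*. *Il5ra* from 24 h to 48 h in control cells ranged from -0.031 to 0.149. Interactions from 0 h to 24 h ranged from -0.155 to 0.086 for *Csf2rb*, -0.113 to 0.037 for *Ifngr1*, -0.047 to 0.114 for *Il4ra* and -0.036 to 0.057 for *Il6ra*, and from 24 h to 48 h from -0.09 to 0.186 for *Csf2rb* and -0.032 to 0.133 for *Il6ra*. The cause was not tested. Depth in fragments is unknown, and the spread at 0 h limits what can be called there.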
